A study of Oryza sativa Indica Group with 8 samples.

Results

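In leaves of the rice line OE5, which overexpresses the clock gene OsPRR37, 31 loci stood at no more than 50% of their level in the recipient variety GL. They were chosen by their measured transcript levels in TPM, the read count of a locus scaled to its length and to the total of the library, so that all libraries have the same sum. The lower of the GL libraries had to reach 2 TPM and to be at least 2 times the higher of the OE5 libraries. These 31 were selected among 35961 listed loci, of which 15704 had at least 2 TPM in both GL libraries and so could have been chosen. The set is therefore 0.197% of the loci that could enter it. Because the same libraries chose the members, their levels and folds are given below as a description without a test.

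GL is the elite variety Guangluai 4, labelled as the wild type, and carries a natural allele of OsPRR37 without function. OE5 is a single transgenic line made by overexpressing OsPRR37 in GL, so an effect of the transgene cannot be told apart from an effect of this line or of its insertion. Both genotypes were grown in a chamber at 28°C for 15 days in a cycle of 14 h light and 10 h dark, and the top most expanded leaves were taken in the morning. RNA-seq of poly-A RNA gave 2 libraries per genotype, with 43423801 and 45708220 counts on genes in GL and 47685773 and 48284992 in OE5. The study calls them biological replicates, but the labels do not say whether they came from separate plants, so their spread may be technical. The level of the overexpressed gene itself was not analysed here, and the leaf label was not checked because no marker of the tissue is paired with a locus identifier.

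OsPRR37 is a pseudo-response regulator of the plant circadian clock, a loop of transcription factors that repress each other in turn through the day. Proteins of this family act as transcriptional repressors in the nucleus, and in rice OsPRR37 is best known as a regulator of heading date under long days. Genes whose transcripts follow the clock are called its output genes. A lower level in OE5 at a single time of day does not separate a lower daily mean from a moved peak. In a whole leaf, less RNA per cell and fewer cells of a type cannot be told apart either.

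The 31 loci together held 2578 and 2579 TPM in the GL libraries, against 870 and 845 TPM in the OE5 libraries. The mean was 2578 ± 0.79 TPM in GL and 858 ± 17.3 TPM in OE5 (SD, n = 2). Their share of all transcripts was thus 0.258% in each GL library and 0.0870% and 0.0845% in the OE5 libraries. Most of the difference of 1721 TPM came from very few loci, since LOC_Os08g04500 alone made up 54.0% of it, the 3 largest 78.0% and the 5 largest 86.5%. Without LOC_Os08g04500, the other 30 loci held 1137 TPM in GL and 346 TPM in OE5. In contrast, 18 of the 31 differed by less than 10 TPM.

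**Figure D1:**
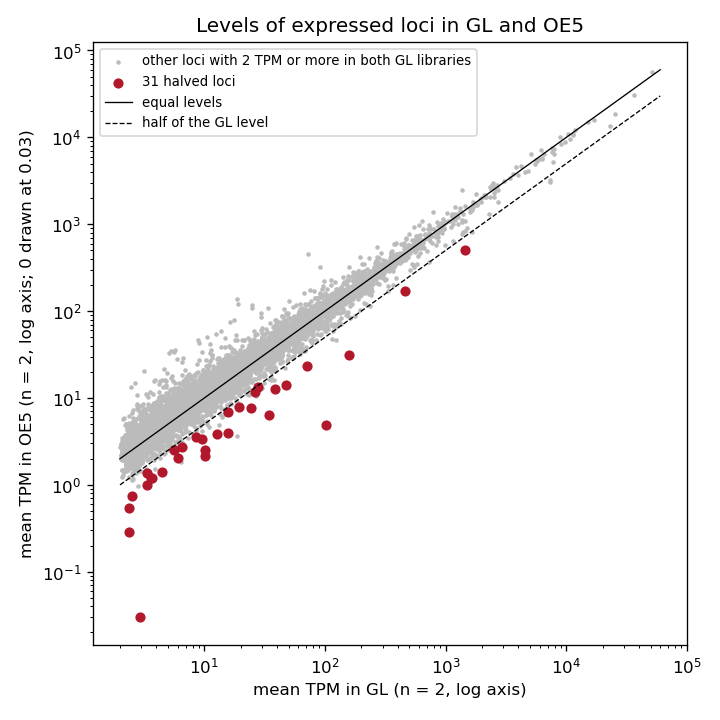
Mean TPM in GL (horizontal axis) against mean TPM in OE5 (vertical axis) on log axes, for the 31 halved loci (red) and the other loci with at least 2 TPM in both GL libraries (grey), with 2 libraries per genotype. The red points span mean GL levels from 2.37 to 1441 TPM and lie under the dashed line of 50% of the GL level, and the locus without counts in OE5 is drawn at 0.03.

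The members spread over the whole range of expression. Their mean GL level ran from 2.37 to 1441 TPM with a median of 10.1 TPM, beside 11.8 TPM for the 15704 loci. In the class of 2 to 5 TPM stood 9 members, which is 29.0% of the set beside 21.2% of the 15704. The class of 5 to 10 TPM held 5 members (16.1% beside 22.8%), and that of 10 to 50 TPM held 12 (38.7% beside 42.8%). Above these, 3 members lay between 50 and 200 TPM (9.68% beside 9.86%) and 2 at 200 TPM or more (6.45% beside 3.25%). The set therefore resembled the expressed loci in level, with somewhat higher shares at either end. With 2 to 12 members per class these shares are coarse, and their differences were not tested. In OE5 the median was 3.57 TPM. Both OE5 libraries were still at 2 TPM or more for 19 members, and both were under 2 TPM for 9 and under 1 TPM for 3.

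The highest member was LOC_Os08g04500, with 1433 and 1449 TPM in GL against 548 and 476 TPM in OE5. It ranked 76 among all listed loci by mean level in GL and 206 in OE5, so it remained an abundant transcript. LOC_Os01g74450 followed with 493 and 420 TPM in GL and 161 and 181 TPM in OE5. For both loci the GL libraries were at most 1.17 times apart, and the lowest value behind these levels was 4169 counts, for LOC_Os01g74450 in OE5-1.

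LOC_Os05g03960 had 133 and 186 TPM in GL and 27.9 and 34.1 TPM in OE5. LOC_Os02g06560 had 79.9 and 62.8 TPM in GL and 18.5 and 28.3 TPM in OE5. Both are short loci, with 0.0674 and 0.0766 times the median length of the expressed loci as derived from counts and TPM. Their TPM therefore rest on few reads, 280 to 730 counts per GL library and 86 to 142 per OE5 library, despite the high level. LOC_Os01g56420 had 45.2 and 31.2 TPM in GL and 12.2 and 13.1 TPM in OE5, with a wider gap between its GL libraries than between its OE5 libraries. Of the 31 members, 22 were shorter than the median of the 15704 loci, and the members' median was 0.521 of it. This share is coarse, and its difference from the other loci was not tested.

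A complete loss was found at 1 locus. LOC_Os09g04384 had 2.81 and 3.01 TPM in GL, from 102 and 112 counts, and 0 counts in both OE5 libraries. Against a floor of 3 counts per OE5 library, its level was at least 36.3-fold lower in OE5. A fold change fitted for this locus would depend on the prior count and is not given. No other member had fewer than 2 counts in any OE5 library, so the remaining 30 were lower but still detected.

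LOC_Os02g37700 came nearest to such a loss while being an abundant transcript in GL. It had 95.6 and 110 TPM in GL, from 2827 and 3323 counts, and 4.47 and 5.18 TPM in OE5, from 141 and 167 counts. The lower GL library was 18.4 times the higher OE5 library, and 4.70% of the GL mean was left. By mean level it ranked 1005 among listed loci in GL and 13168 in OE5, the widest step in rank among the 10 members with the highest GL levels.

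LOC_Os05g30430 had the next highest ratio, 6.37, at a low level of 2.52 and 2.23 TPM in GL and 0.23 and 0.35 TPM in OE5. With 14 and 22 counts in OE5, the ratio of summed counts scaled to library size was 8.28, with an exact 95% binomial interval of 5.84 to 12.1. LOC_Os12g42630 was similarly low, with 2.37 and 2.36 TPM in GL and 0.64 and 0.43 TPM in OE5. Its scaled ratio of counts was 4.45 with an interval of 2.77 to 7.45. These intervals cover counting error only. In each library the counts on genes exceed the number of read pairs given by the study. The counts are therefore not all independent, and the intervals are too narrow.

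The other members with large ratios were expressed at intermediate levels. LOC_Os10g31320 had 15.8 and 15.7 TPM in GL and 3.28 and 4.73 TPM in OE5, a ratio of 3.32 between the nearest libraries. LOC_Os08g26220 had 46.9 and 48.6 TPM in GL and 13.4 and 15.0 TPM in OE5, a ratio of 3.12, and its replicates were close in both genotypes. LOC_Os11g38580 had 7.53 and 12.6 TPM in GL and 1.87 and 2.46 TPM in OE5, a ratio of 3.07, although its GL libraries differed by 1.68 times.

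**Figure D2:**
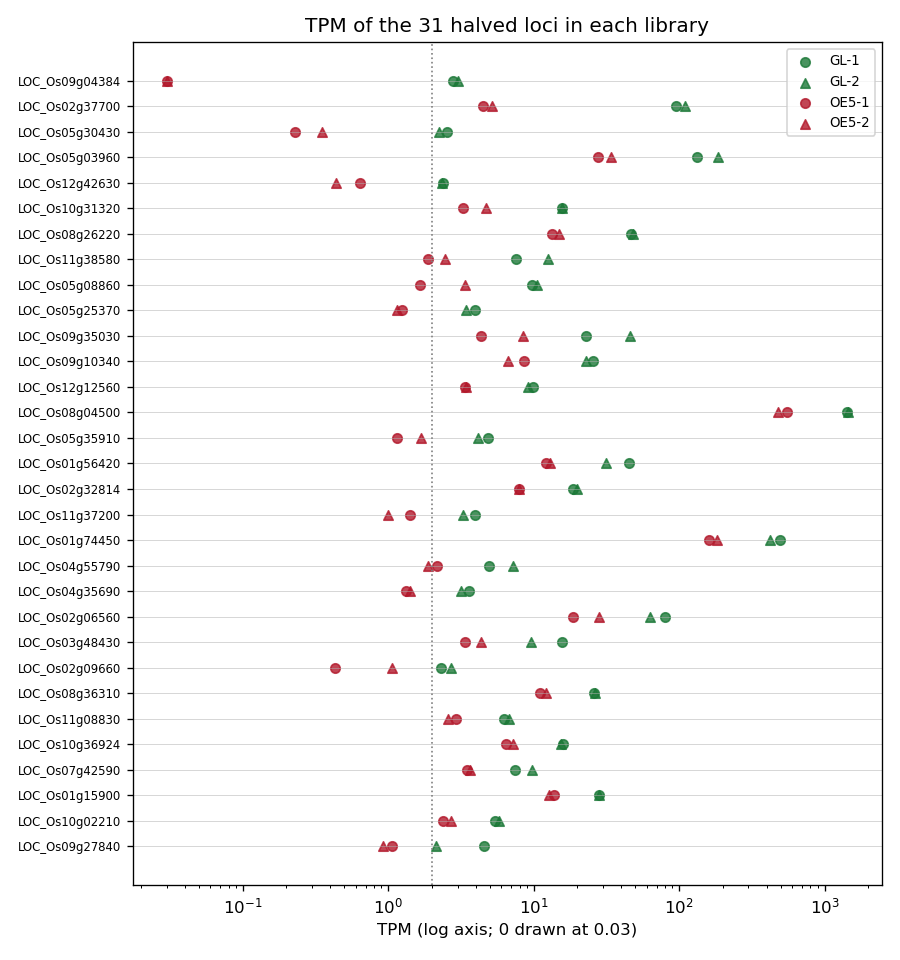
TPM (log axis) of the 31 halved loci in GL-1 and GL-2 (green) and OE5-1 and OE5-2 (red), ordered from the highest to the lowest ratio of the lower GL to the higher OE5 library, with the minimum of 2 TPM as a dotted line. Green and red points do not overlap at any locus because the rule requires it, and the OE5 points of LOC_Os09g04384, at 0, are drawn at 0.03.

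Most folds were modest. Of the 31 ratios between the nearest libraries, 17 lay between 2 and 2.5 and 6 between 2.5 and 3, so 23 were under 3. A further 5 lay between 3 and 4, 1 between 4 and 10 and 1 over 10, besides the locus with 0 counts in OE5. The median ratio was 2.39, beside 0.804 for the 15704 loci. By genotype means, the median fold was 3.10 with the lost locus at its bound and 3.07 over the other 30, and the median member kept 32.3% of its GL level. The 11 members not named for their level, ratio or spread filled the middle of the set. They had mean levels of 3.37 to 24.2 TPM in GL and 1.20 to 7.95 TPM in OE5, with ratios of 2.04 to 2.69.

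**Figure D3:**
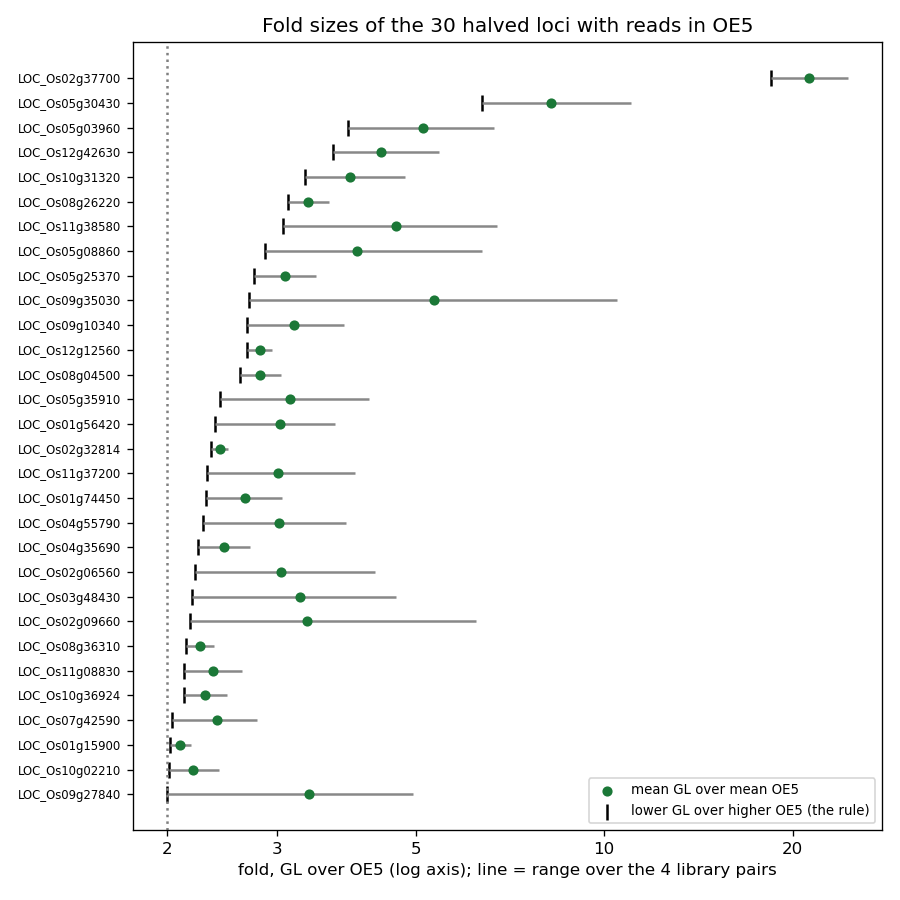
Fold of GL over OE5 (log axis) for the 30 halved loci with reads in OE5. Black ticks are the lower GL over the higher OE5 library, green points the ratio of genotype means and grey lines the range over the 4 pairs of libraries, and LOC_Os02g37700 stands apart at 18.4 while 23 ticks lie under 3.

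Replicates of the members were about as close as those of other loci in GL and less close in OE5. The higher GL library was 1.13 times the lower in the median member, beside 1.14 for the 15704 loci. In OE5 the median was 1.15 for the members, beside 1.09. The members' median level there was only 3.57 TPM, and the gaps were not compared at like levels. The rule uses the lower GL and the higher OE5 library and so disfavours loci with wide gaps. These gaps are therefore shaped by the selection. GL replicates differed by more than 1.5 times in 4 members. Among these, LOC_Os09g27840 had 4.55 and 2.12 TPM in GL against 1.06 and 0.92 TPM in OE5, so its size of change depends on which GL library is used. LOC_Os09g35030 had 23.0 and 45.8 TPM in GL and 4.38 and 8.48 TPM in OE5, with a gap of about 2.00 and 1.94 times inside each genotype.

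OE5 replicates differed by more than 1.5 times in 5 members. LOC_Os02g09660 had the widest gap, with 2.30 and 2.69 TPM in GL and 0.43 and 1.06 TPM in OE5. These values come from 10 and 12 counts in GL and 2 and 5 counts in OE5. Its scaled ratio of counts was 3.38 with an exact 95% binomial interval of 1.40 to 9.38, from the fewest counts in the set. This interval is too narrow for the reason given above. LOC_Os05g08860 had 9.69 and 10.5 TPM in GL and 1.65 and 3.37 TPM in OE5, with its OE5 libraries 2.04 times apart but both under the GL libraries. Which library was decisive varied, with GL-1 the lower GL library in 15 members and GL-2 in 16, while GL-2 was the lower one for 63.3% of the 15704 loci. OE5-2 was the higher OE5 library in 20 members and OE5-1 in 10, while OE5-2 was the higher one for 50.3% of the 15704 loci.

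The limits of the rule cut through a continuous range. Just inside the ratio of 2 were LOC_Os09g27840 at 2.00, LOC_Os10g02210 at 2.01 and LOC_Os01g15900 at 2.02. LOC_Os10g02210 had 5.44 and 5.81 TPM in GL and 2.40 and 2.70 TPM in OE5. LOC_Os01g15900 had 28.0 and 28.0 TPM in GL and 13.8 and 12.8 TPM in OE5. Just outside were LOC_Os09g31130 and LOC_Os03g04070, both at 1.97, and LOC_Os06g39960 at 1.95. LOC_Os09g31130, with 32.1 and 30.6 TPM in GL and 15.5 and 14.2 TPM in OE5, differs from LOC_Os01g15900 by little in any library. Ratios from 1.9 to 2 were found at 11 loci and ratios from 2 to 2.1 at 4.

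At a ratio of 2 or more, 24 loci had their lower GL library between 1 and 2 TPM and 5 between 2 and 3 TPM. Just inside were LOC_Os09g27840 at 2.12 TPM, LOC_Os05g30430 at 2.23 TPM and LOC_Os02g09660 at 2.30 TPM. Just outside were LOC_Os01g64120 at 1.75 TPM, LOC_Os01g52150 at 1.59 TPM and LOC_Os02g04730 at 1.55 TPM in the lower GL library. LOC_Os08g36310, a member far above the minimum level, had 26.1 and 26.5 TPM in GL and 11.1 and 12.1 TPM in OE5, a ratio of 2.15. A ratio of 1.5 or more would have taken in 125 loci, of which 94 lay between 1.5 and 2.

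All loci were also fitted from the counts with the quasi-likelihood test of edgeR. Lower calls, with an adjusted p under 0.05 and a fold over 1.5, were made for 1.28% of the 19280 loci tested, or 246, and for 29 of the 31 members. As the rule used these same libraries, the share among members says nothing beyond the rule. The members not called were LOC_Os09g35030, at -2.59 ± 0.59 on the log2 scale, and LOC_Os02g09660, at -1.87 ± 0.73 (fitted change of OE5 against GL ± standard error). LOC_Os02g09660 is the member with the fewest counts and was called under none of the 11 alternatives. In LOC_Os09g35030, library 2 was the higher in both genotypes, and this locus was called with a replicate block, by DESeq2 and without either GL library. LOC_Os12g42630 was among several members no longer called when either OE5 library was left out, which leaves 1 OE5 library. Its fitted log2 change was -2.59 without OE5-1 and -2.03 without OE5-2. Conversely, 96 loci were called lower with a fold over 2, and 67 of them were no members. Of these, 18 had a GL library under 2 TPM and 49 had nearest libraries less than 2 times apart.

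The number of members depends on how OE5 and GL are scaled to each other. Over those of the 19280 loci with reads in both genotypes, the median log2 ratio of OE5 to GL was 0.15. OE5 was thus 11.3% higher in the middle of the distribution. The median log2 ratio of the members, with the lost locus at its bound, was -1.63 as deposited and -1.78 relative to this shift. The mirrored rule, with the lower OE5 library at 2 TPM and at least 2 times the higher GL library, gave 234 loci. Of these, 139 had a GL library under 2 TPM. The corresponding class among the members, with an OE5 library under 2 TPM, holds 12 of the 31. Halved loci were thus 11.7% of the 31 and 234 loci together. After division by the TMM factor of edgeR there were 48 halved and 178 doubled loci, or 21.2% halved. After division by the library median there were 53 and 171, or 23.7%. With at least 2 TPM in all 4 libraries, 19 halved and 95 doubled loci were left on deposited TPM, or 16.7% halved, beside 30.8% and 34.6% under these scalings. All 31 members remained in the halved set under both scalings, with 17 and 22 further loci. The TMM factors were 0.990 and 0.914 in GL and 1.04 and 1.06 in OE5. Dividing by them raises every GL level and lowers every OE5 level, so the members had to stay. The library median also moved OE5 down against GL, so neither scaling tests the stability of the set. The lower number of halved than of doubled loci held in all 3 scalings, but its size did not.

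The study lists loci at which a difference in DNA methylation coincided with a difference in expression between GL and OE5. It chose them on these same libraries, so the list is no independent evidence of direction. The list as used here may not be whole. Of its 34 loci, 17 had at least 2 TPM in both GL libraries and could enter the set. Of these 17, 2 are members, beside 0.197% of the 15704 loci. They make up 5.88% of the whole list and 6.45% of the members. Another 20 of the 34 are in the doubled set, which holds 234 of all 35961 listed loci. As the list was chosen for changed expression, these shares say nothing beyond that choice. Methylation was not analysed here. OsRLCK183 (LOC_Os05g25370) is named as a receptor-like cytoplasmic kinase, a class of kinases without an extracellular domain many of which relay signals from receptors at the membrane. It had 3.98 and 3.41 TPM in GL and 1.24 and 1.15 TPM in OE5, from 642 and 564 counts in GL and 213 and 202 in OE5, a ratio of 2.76. The other is LOC_Os05g08860, given above, which the list leaves without a gene name.

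A further 8 loci of the list had both OE5 libraries below both GL libraries without reaching the rule. RIPER7 (LOC_Os10g34884) came nearest, with 2.86 and 3.10 TPM in GL and 1.33 and 1.53 TPM in OE5, a ratio of 1.87. ZIFL8 (LOC_Os11g04150), named after a family of membrane transporters, had 19.6 and 20.2 TPM in GL and 10.3 and 11.8 TPM in OE5, a ratio of 1.66. OsNAS3 (LOC_Os07g48980), a nicotianamine synthase whose product chelates iron and other metals, had 3.43 and 9.30 TPM in GL and 1.55 and 2.15 TPM in OE5. Its ratio of 1.60 rests on the lower GL library, since GL-2 was far above GL-1. These loci were named after their values were seen. Among the 15704 loci, 8.86% had both OE5 libraries below both GL libraries.

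The members lay on 11 of the 12 chromosomes. Chromosome 5 held 5 of them (16.1%, beside 8.41% of the 15704 loci), and chromosomes 2 and 9 held 4 each (12.9%, beside 12.1% and 5.43%). Chromosome 3, with 13.7% of the 15704 loci, held 1 member, and chromosome 6, with 7.97%, held 0. With 1 to 5 members per chromosome these shares are coarse. By the order of listed loci, 9 members stood in the first 25% of their chromosome, 5 in the next, 10 in the next and 7 in the last, beside 25.3%, 20.4%, 24.6% and 29.7% of the 15704 loci. LOC_Os10g02210, at 2.43% of the loci along chromosome 10, and LOC_Os01g74450, at 99.6% along chromosome 1, stood nearest to the ends.

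**Figure D4:**
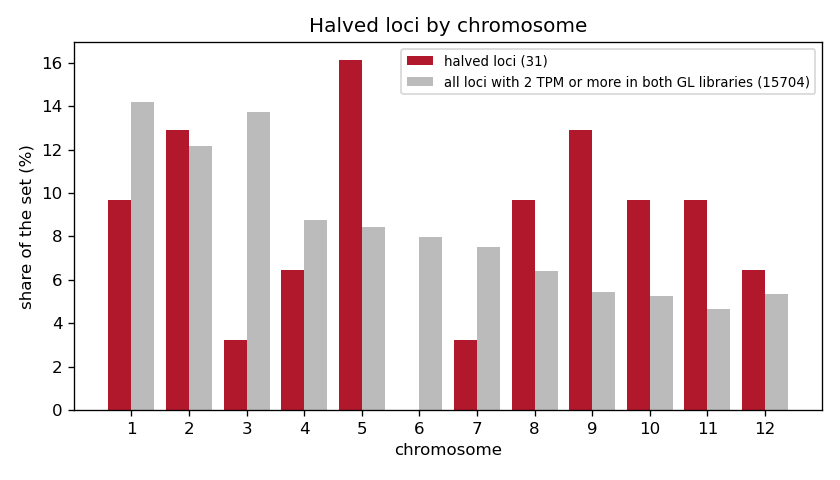
Share (%) of the 31 halved loci (red) and of the 15704 loci with at least 2 TPM in both GL libraries (grey) on each of the 12 chromosomes. Chromosome 5 has the highest share of halved loci (16.1%), and chromosome 6 has 0.

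No run of neighbours was found. With loci ordered by the number in their identifier, 0 of the 31 members stood next to another, and 0 stood within 50 listed loci of another. The closest pair, LOC_Os11g37200 and LOC_Os11g38580, was 77 listed loci apart, and the median distance to the nearest member on the same chromosome was 373. The members on chromosomes 3 and 7 were alone there. Of the 95 doubled loci with 2 TPM in both GL libraries, 20 (21.1%) stood next to another and 40 (42.1%) within 50 listed loci of one. That set is larger, so the shares are not directly comparable. The share expected for scattered loci was computed for neither set, and the difference between the sets was not tested.

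The expressed loci around the members were not lower as a group. Of the 310 listed loci within 5 places of a member, 115 had at least 2 TPM in both GL libraries. Their median log2 ratio of OE5 to GL was 0.16, beside 0.14 for the 15704 loci. The OE5 mean was under the GL mean in 24 of them (20.9%, beside 23.6%). Both OE5 libraries were below both GL libraries in 10 (8.70%, beside 8.86%). At 1.5 times between the nearest libraries, 0 were lower (0.796% of the 15704 loci) and 3 were higher. None of the 115 was at 50% of its GL mean or less. The other 195 loci had a GL library under 2 TPM and are not covered by these shares. Single loci among them may have fallen with a member. Both loci next to the lost LOC_Os09g04384 are among them, with at most 0.291 TPM in a GL library and 0 TPM in both OE5 libraries. Their GL levels are too low to describe a change.

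Of the 62 places next to a member, 22 held a locus with at least 2 TPM in both GL libraries, beside 19 of the members. Both OE5 libraries were below both GL libraries at 4 of these (18.2%, beside 8.86% of the 15704 loci), above them at 7 and overlapping at 11. With 22 loci this share is coarse, and its difference from the other loci was not tested. The 4 were chosen for description after their values were seen. LOC_Os04g55800, next to LOC_Os04g55790, had 54.1 and 76.1 TPM in GL and 37.4 and 32.7 TPM in OE5, and the member had 4.93 and 7.23 TPM in GL and 2.16 and 1.87 TPM in OE5. LOC_Os04g35680, next to LOC_Os04g35690, had 7.13 and 5.43 TPM in GL and 3.19 and 3.66 TPM in OE5, and the member had 3.58 and 3.15 TPM in GL and 1.32 and 1.41 TPM in OE5. In both places the neighbour was lower in the same direction by less, with log2 ratios of -0.89 and -0.88 for the neighbours. LOC_Os02g06550, next to LOC_Os02g06560, and LOC_Os12g12580, next to LOC_Os12g12560, had log2 ratios of -0.60 and -0.38.

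The opposite direction occurred as well. LOC_Os10g31330, next to LOC_Os10g31320, had 5.38 and 3.07 TPM in GL and 8.68 and 11.5 TPM in OE5, a log2 ratio of 1.26, while the member itself was at 25.4% of its GL mean. No doubled locus stood next to a member, and 1 stood within 5 places, LOC_Os08g04540 near LOC_Os08g04500, with 0.353 and 1.06 TPM in GL and 2.47 and 2.89 TPM in OE5. The counting is not stated to use strand or to resolve overlapping loci, so reads of a member and of an overlapping neighbour cannot be told apart.

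**Figure D5:**
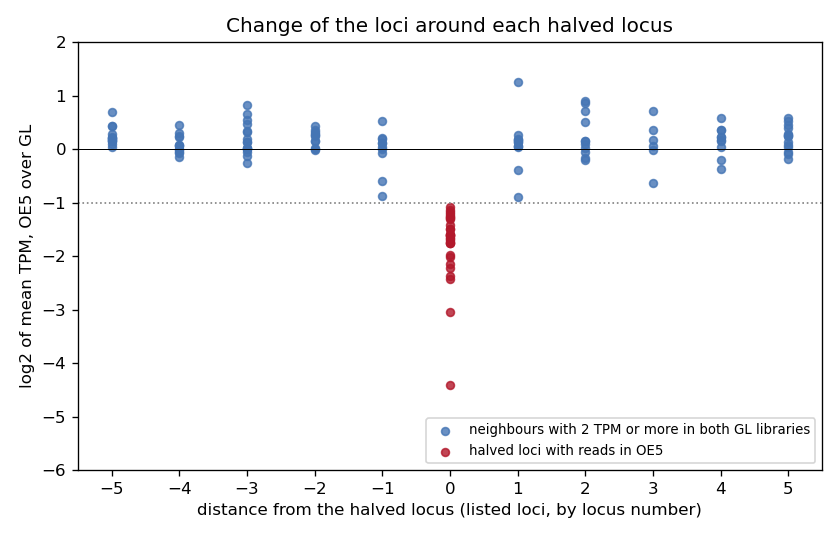
Log2 of mean TPM in OE5 over GL (vertical axis) for the 115 neighbours with at least 2 TPM in both GL libraries (blue) by their distance in listed loci from the halved locus (horizontal axis), and for the 30 halved loci with reads in OE5 at distance 0 (red). The neighbours lie between -0.89 and 1.26 and none reaches the dotted line at -1.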

How the data were processed

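RNA-seq libraries of GL and OE5 leaves (2 each) were analysed. The 4 bisulfite samples were not analysed here. The authors trimmed the reads with fastp 0.20.1, used HISAT2 2.1.0 for mapping to Nipponbare (MSU v7.0), and obtained both tables with TPMCalculator. Deposited counts are raw reads per locus, and the deposited TPM values are scaled to length and library. The handling of strand, multi-mapped reads and overlapping loci is not given in the sources used here. Chromosome and order were read from the identifiers, which 112 loci lack. No identifier matched the RefSeq name table.

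The members and lists were chosen with earlier results of these data known. Members named are the lost locus, the 10 with the highest ratio, the 10 with the highest GL level, those nearest the limits, those in the study's list and the 3 with the widest replicates per genotype. Counts of loci with a TPM sum of at least 2 in GL or OE5 were fitted with edgeR 4.0.16 in R 4.3.3 (TMM, quasi-likelihood, Benjamini-Hochberg adjustment). The fit was tested on simulated data. Standard errors were obtained by dividing the size of the log2 change by the root of the F statistic. Alternatives were other limits, scalings, normalizations and filters, DESeq2 1.42.0, limma 3.58.1 on log2(TPM + 1), a replicate block and leaving out each library. The libraries of a genotype differed by more than sampling noise (chi-square divided by its degrees of freedom, 214 in GL and 64.9 in OE5) and were kept apart.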

Additional observations from a re-analysis of the deposited data

How the results depend on the processing

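The number of halved loci moved with each limit. It was 31 as reported, 55 with a minimum of 1 TPM, 125 with a ratio of 1.5, 8 with a ratio of 3, 85 by genotype means, 48 on TPM over the TMM factor and 53 on TPM over the library median. Leaving out 1 library gave 49 (without OE5-1) to 133 (without GL-1) loci. Like the genotype means, this asks less of each locus, so the count could not fall below 31. Comparing only libraries of the same number, as a replicate block, also asks less and gave 46. The numbers mark no shared batch in the labels, and the deviations of libraries with the same number correlated across genes at 0.126 (Pearson) and -0.124 (Spearman), over genes that are no independent replicates. edgeR called 29 members, 30 with the replicate block, 30 with DESeq2 and 28 with limma. Over all 19280 loci tested, lower calls in these fits were 1.28%, 1.4%, 1.5% and 0.363%. The added call with the block and with DESeq2 was LOC_Os09g35030 (adjusted p = 2.16e-05 with the block in edgeR and 0.00454 in DESeq2, against 0.193 in edgeR without the block, and 2.16e-05 to 0.632 over its 11 alternatives). With 1 OE5 library left out, lower calls fell among the members and over all tested loci as well, so that fall is not particular to the members. All 31 had a lower fitted level in OE5 in the main fit and all 11 alternatives, an outcome that the rule fixed in advance. The median log2 ratio was -1.63, and -1.26 on log2(TPM + 1). Lost loci numbered 1, and 2 at 10 or fewer counts or, in the range of 1 to 2, with an OE5 library left out. The added locus is LOC_Os02g09660, with 2 and 5 counts in OE5 but only 10 and 12 in GL. Such counts cannot show a loss. The members' share of GL was 0.258% of TPM and 0.283% of counts, and 0.114% of TPM without LOC_Os08g04500. Their share of OE5 was 0.0858%, 0.0976% and 0.0346%. The version without LOC_Os08g04500 was chosen after seeing the data. The 0 members beside another stayed at 0 within 5 and 10 listed loci, among expressed loci and on TMM-scaled TPM. With 2 libraries per genotype, members of few counts such as LOC_Os02g09660 are limited by depth.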
